A study of Mus musculus with 9 samples.

Results

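The genes described here are 10 genes of smooth muscle and myofibroblast contraction, measured in mouse embryonic fibroblasts (MEFs). They are Acta2, Actg2, Myh11, Myl9, Tpm1, Tpm2, Cald1, Cnn1, Tagln and Des. They were chosen by symbol, with earlier results of these data known but by no measured threshold, and all 10 were found among the 24341 genes listed for every sample. RNA-Seq of poly(A)-selected RNA was available for 9 MEF samples, 3 each labelled WT, Atm-/- and Sirt6-/-, all of strain C57BL/6 and grown in DMEM with serum. The study addressed how the DNA damage kinase ATM and the deacetylase SIRT6 relate to ageing and metabolism.

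The sample descriptions limit these groups as models. They name wildtype, Sirt6-/-, P53-/- and Atm-/-P53-/- mice as sources of the cells, without tying a p53 genotype to a sample. The study's methods describe MEFs obtained from different laboratories, immortalized Atm-/-;p53-/- cells among them, and do not say which were sequenced. Trp53 had 6563 to 7108 reads in WT, 9081 to 9218 in Sirt6-/- and 806 to 946 in the libraries labelled Atm-/-. Genotype, cell line and p53 status therefore cannot be told apart in any comparison with the libraries labelled Atm-/-, nor genotype and cell line in those with Sirt6-/-. Nothing says that the 3 samples of a genotype came from separate cultures or embryos, so p-values measure the spread between these samples, which may be technical.

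Each library had 32187040 to 33837949 counted reads, so 3 reads corresponded to 0.0887 to 0.0932 CPM (counts scaled to library total). Sirt6, the targeted gene, had 402 to 487 reads in WT and 4 to 7 in Sirt6-/-. Atm had 1536 to 1627 reads in WT and 3443 to 3768 in the libraries labelled Atm-/-, 1.04 higher on the log2 scale. Counts per gene do not show which exons were read. Because the targeted gene went against the label, those samples are called the libraries labelled Atm-/- throughout, and every direction given for them rests on that label. WT replicate 2 stood apart a little, with a chi-square per gene of 15.6 and 14.4 against the other WT samples, where every other pair within a genotype had 5.11 to 6.66.

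In smooth muscle cells, and in fibroblasts that have become myofibroblasts, contraction is run by myosin II pulling on actin filaments. Phosphorylation of the myosin regulatory light chain switches the motor on. Tropomyosin, caldesmon, calponin and transgelin lie along the actin filament, and desmin belongs to the intermediate filaments that tie contractile units together. Many of these genes carry CArG boxes, the binding element of serum response factor (SRF), which works with the coactivators myocardin and the myocardin-related factors. Cultured fibroblasts such as MEFs are known to express several of these genes, in particular Acta2, Tagln and Tpm1, while Myh11 marks differentiated smooth muscle.

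The CArG box was looked for in the 300 bases from 250 before to 50 after each gene's start, in RefSeq windows on GRCm38.p6. Of the 10 genes, 7 matched an entry, with 8 windows in all, and Tagln, Myh11 and Actg2 are named only. An exact box was found in 1 of the 7 genes, Myl9, beside 1.81% of the 27025 genes with a window. With up to 1 letter off, a match chosen after the exact search was seen, 4 of the 7 genes held a box, Myl9, Cald1, Tpm1 and Acta2, beside 23.8% of all genes. The box reads alike on either strand, so a match on one strand was counted once. Windows of 3 genes are shown because Myl9 held the exact box and rose most of all members, Tpm1 was the most abundant member, and Cnn1 held no box in its window. Capitals mark the boxes, and bases in annotated exons are left out.
Myl9 (chr2:156775214-156775419, plus strand, 206 bases): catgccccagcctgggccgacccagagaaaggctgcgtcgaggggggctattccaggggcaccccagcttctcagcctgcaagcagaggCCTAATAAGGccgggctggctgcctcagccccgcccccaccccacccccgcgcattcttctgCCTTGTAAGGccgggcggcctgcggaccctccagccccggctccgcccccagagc
Tpm1 (chr9:67049407-67049463, minus strand, 57 bases): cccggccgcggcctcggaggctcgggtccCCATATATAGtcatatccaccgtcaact
Cnn1 (chr9:22099003-22099215, plus strand, 213 bases): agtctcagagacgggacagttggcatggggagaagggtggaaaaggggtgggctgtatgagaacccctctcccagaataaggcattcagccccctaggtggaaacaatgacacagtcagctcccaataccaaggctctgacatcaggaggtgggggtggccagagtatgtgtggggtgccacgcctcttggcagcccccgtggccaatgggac
In Myl9 the exact box, CCTAATAAGG, lay at -161 to -152 from the RefSeq start, and the second, CCTTGTAAGG, which is 1 letter off, at -99 to -90. The Tpm1 box shown lay at -221 to -212. Acta2 held CCCTATATGG at -84 to -75 and CCTTGTTTGG at -34 to -25, and Tpm1 also held CCAAAAAAGT at -80 to -71. Each of these 3 is 1 letter off and in an annotated exon. These matches are letters in a window and do not show binding.

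Levels between genes are compared in the deposited RPKM, which is scaled by listed gene length and by library total. In WT MEFs Tpm1 was the highest member, at 2032 RPKM ± 99.5 (SD, n = 3), and was number 7 of the 24341 genes by mean RPKM. Tagln followed at 651 ± 25.9, Acta2 at 530 ± 37.8 and Cald1 at 291 ± 6.00. Tpm2 had 55.5 ± 4.20, Cnn1 17.1 ± 0.829 and Actg2 7.87 ± 1.55. Myl9 was at 0.930 ± 0.269, Des at 0.342 ± 0.146 and Myh11 at 0.0166 ± 0.0214. In WT the samples of each pair of neighbours in this order did not overlap. The WT cells thus held abundant tropomyosin, transgelin, smooth muscle actin and caldesmon RNA, with almost no RNA of the smooth muscle heavy chain.

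The order changed in both other genotypes. In the libraries labelled Atm-/- it was Tpm1 (832 RPKM ± 23.6), Acta2 (285 ± 34.5), Cald1 (209 ± 12.7), Tagln (197 ± 30.4), Tpm2 (98.8 ± 2.74), Myl9 (21.5 ± 2.61), Cnn1 (8.66 ± 0.753), Actg2 (4.50 ± 0.872), Des (0.242 ± 0.0778) and Myh11 (0.0215 ± 0.0149), each mean ± SD of 3 samples. In Sirt6-/- it was Tpm1 (711 RPKM ± 36.8), Acta2 (452 ± 56.3), Cald1 (259 ± 13.3), Tagln (167 ± 13.5), Tpm2 (124 ± 4.36), Myl9 (47.2 ± 5.75), Actg2 (14.6 ± 1.92), Cnn1 (4.92 ± 1.51), Des (0.0838 ± 0.0483) and Myh11 (0.0568 ± 0.00484). Only Cald1 and Tagln in the libraries labelled Atm-/-, and Des and Myh11 in Sirt6-/-, were neighbours whose samples overlapped. Tagln thus moved from the second to the fourth place in both, and Myl9 passed Cnn1 and Actg2. The order in each genotype was the same with TMM-normalised CPM per kilobase in place of RPKM. Both use the same counts and listed lengths, so within a genotype the order could hardly differ, and this is no separate check.

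The 10 genes together took 0.694 to 0.736% of all reads in WT, 0.333 to 0.376% in the libraries labelled Atm-/- and 0.373 to 0.427% in Sirt6-/-. Without Tpm1 the shares were 0.364 to 0.387%, 0.196 to 0.232% and 0.259 to 0.301%. In these bulk samples, fewer cells of a kind and less RNA per cell cannot be told apart.

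**Figure D1:**
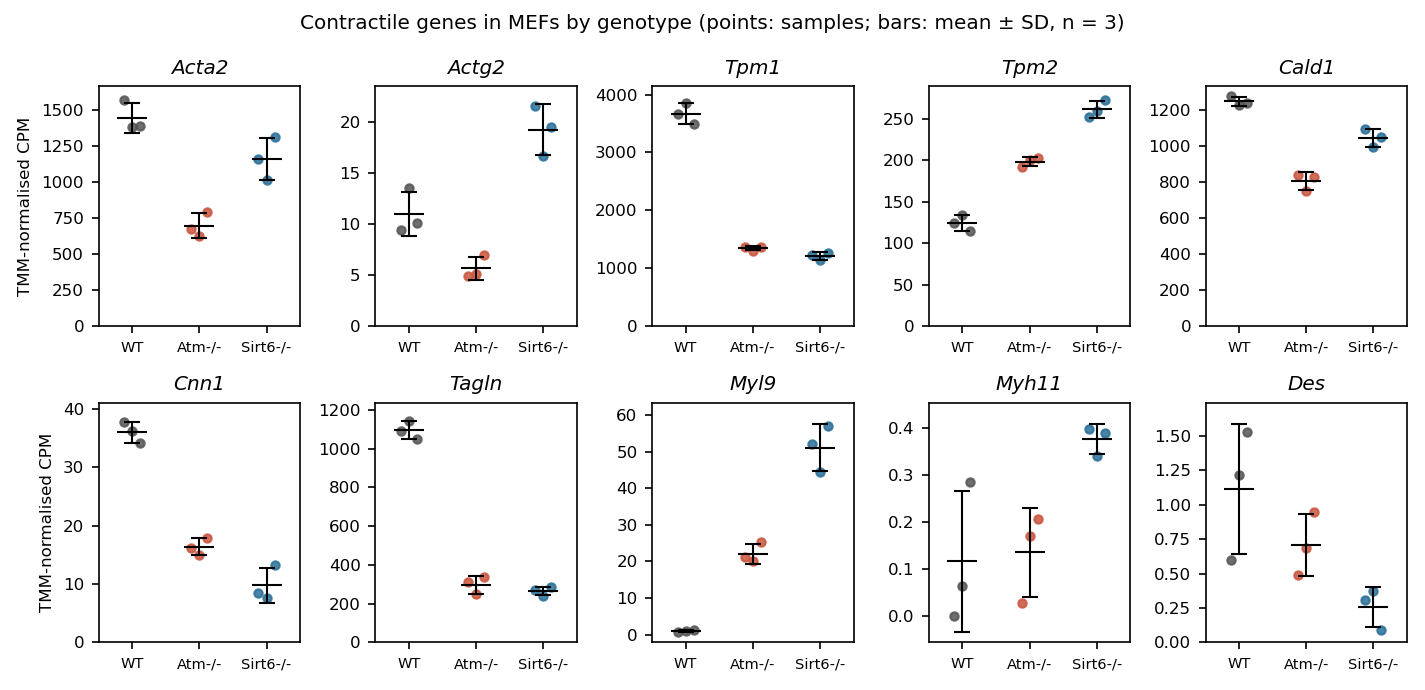
TMM-normalised CPM of the 10 contractile genes (linear axis, 1 panel per gene) in the 3 samples each of WT, Atm-/- and Sirt6-/- as labelled; points are samples, black bars the mean ± SD. Tpm1 and Tagln were lower in the libraries labelled Atm-/- and Sirt6-/- than in every WT sample, Myl9 and Tpm2 were higher, and Actg2 was lower in Atm-/- and higher in Sirt6-/-.

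Comparisons with WT asked how the libraries of each other label differ from those labelled WT. The third comparison set the libraries labelled Atm-/- against Sirt6-/-. They were tested with edgeR's quasi-likelihood method over all genes that passed a filter on low counts, and a gene was called at a Benjamini-Hochberg adjusted p under 0.05. All adjusted p-values below come from these fits. The 2 comparisons with WT share the WT samples.

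In the libraries labelled Atm-/-, 6 contractile genes fell against WT, Tagln, Tpm1, Cnn1, Acta2, Actg2 and Cald1. Myl9 and Tpm2 rose, Des did not pass the test, and Myh11 did not pass the filter. Of the 9 members tested, 2 were thus called higher, where 34.7% of all 13283 genes tested were, and 6 lower, where 33.6% were. The samples of both genotypes did not overlap for 8 of the 9, beside 72.7% of all genes. The median log2 fold change of the members was -0.97, and that of all genes tested 0.02.

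In Sirt6-/- MEFs, 6 contractile genes fell against WT, Des, Tagln, Cnn1, Tpm1, Acta2 and Cald1. Myl9, Tpm2 and Actg2 rose, and Myh11 did not pass the test. Of the 10 tested, 3 were called higher, beside 39.2% of 13206 genes, and 6 lower, beside 37.4%. All 10 had samples that did not overlap, beside 79.0% of all genes. Myh11 is among them on few reads, 0 to 9 in WT and 11 to 13 in Sirt6-/-. It passed the filter on low counts only through Sirt6-/-, where it was high. The members' median log2 fold change was -0.29, and that of all genes 0.02.

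Directly compared, the libraries labelled Atm-/- had 4 members higher than Sirt6-/- (Des, Cnn1, Tagln and Tpm1), beside 38.0% of 13460 genes, and 6 lower (Actg2, Myh11, Myl9, Acta2, Tpm2 and Cald1), beside 37.8%. Samples did not overlap for 9 of the 10, beside 78.1% of all genes, the exception being Tagln. Myh11 again passed the filter only through Sirt6-/-. The medians were -0.38 for the members and 0.00 for all genes. With most genes tested called in each comparison, a call alone says little of these genes, and the sizes below carry the description.

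**Figure D2:**
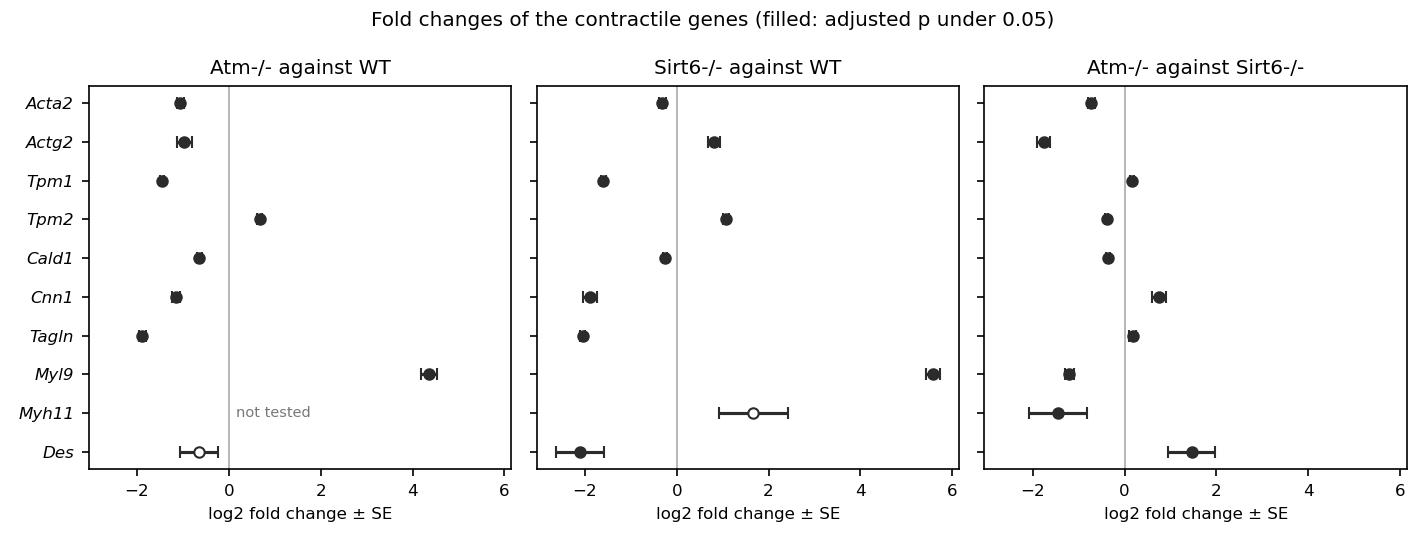
Log2 fold change ± SE of each contractile gene in the 3 comparisons (horizontal axis, edgeR fits of 3 against 3 samples; filled points have an adjusted p under 0.05). Myl9 lies farthest to the right in both comparisons with WT, at 4.36 and 5.58, while Tagln, at -1.88 and -2.05, and Tpm1, at -1.45 and -1.60, lie on the left in both.

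Acta2 encodes alpha smooth muscle actin, the usual mark of a myofibroblast, and lies on chromosome 19 (34241090 to 34255590, GENCODE M21, GRCm38). Its read counts were 49974, 43242 and 43798 in WT replicates 1 to 3, 23467, 21871 and 26806 in the libraries labelled Atm-/-, and 37746, 32765 and 43675 in Sirt6-/-. All 3 libraries labelled Atm-/- lay below every other sample. The raw counts of Sirt6-/- and WT overlapped, but after TMM normalization the highest Sirt6-/- sample had 1310 CPM and the lowest WT sample 1383 CPM. Against WT, Acta2 fell by 1.06 on the log2 scale (SE 0.07, adjusted p = 9.6e-09) in the libraries labelled Atm-/- and by 0.32 (SE 0.08, adjusted p = 0.0016) in Sirt6-/-. The log2 difference between the former and the latter was -0.73 (SE 0.07, adjusted p = 1.5e-08).

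Actg2, gamma smooth muscle actin of visceral muscle, lies on chromosome 6 (83512905 to 83536265). It had 300, 421 and 317 reads in WT, 171, 178 and 234 in the libraries labelled Atm-/- and 703, 539 and 648 in Sirt6-/-. The 3 genotypes did not overlap, and WT lay in the middle. Actg2 fell by 0.97 (SE 0.17, adjusted p = 0.00016) in the libraries labelled Atm-/- and rose by 0.81 (SE 0.14, adjusted p = 8.8e-05) in Sirt6-/-, so it was the member that moved in opposite directions from WT. The direct difference was -1.76 (SE 0.14, adjusted p = 1.8e-10). Acta2 made up 98.5% ± 0.361 of the RPKM of the 2 smooth muscle actins in WT, 98.4% ± 0.138 in the libraries labelled Atm-/- and 96.8% ± 0.349 in Sirt6-/- (SD, n = 3). The actin genes are close paralogs, and how reads that fit several genes were counted is not given in the sources used here, so their levels relative to each other are uncertain.

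Of all actin RPKM, Acta2 made up 12.1% ± 0.858 in WT, 6.06% ± 0.606 in the libraries labelled Atm-/- and 12.3% ± 1.11 in Sirt6-/-. The cytoplasmic actins Actb and Actg1 made up most of the rest. Actg1 rose by 0.18 (SE 0.04, adjusted p = 0.0019) in the libraries labelled Atm-/- and fell by 0.25 (SE 0.05, adjusted p = 0.00019) in Sirt6-/-. Actb fell by 0.51 (SE 0.05, adjusted p = 2.4e-07) in Sirt6-/-. In the libraries labelled Atm-/- its difference of -0.23 (SE 0.05, adjusted p = 0.00057) was lost when library totals replaced TMM (adjusted p = 0.225).

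Myh11, the myosin heavy chain of differentiated smooth muscle, lies on chromosome 16 (14194535 to 14291372) and was at the edge of detection. It had 0, 2 and 9 reads in WT, 1, 6 and 7 in the libraries labelled Atm-/- and 13, 11 and 13 in Sirt6-/-. The Sirt6-/- counts lay above all others, but each rests on a handful of reads. The difference between Sirt6-/- and WT was 1.66 (SE 0.75, adjusted p = 0.057). It passed with library totals in place of TMM (adjusted p = 0.0466) and without WT replicate 3 (log2 fold change 3.41, adjusted p = 0.0070). The call of -1.44 (SE 0.63, adjusted p = 0.044) between the libraries labelled Atm-/- and Sirt6-/- was lost under most alternatives, with adjusted p from 0.0527 with library totals to 0.182 without Atm-/- replicate 1. The nonmuscle heavy chains Myh9 and Myh10 held nearly all of the family's RNA in every genotype. Myh9 rose by 1.41 (SE 0.05) in the libraries labelled Atm-/- and by 1.03 (SE 0.05) in Sirt6-/-, with adjusted p of 1.8e-12 and 9.4e-11, and went from 59.8% ± 1.74 of family RPKM in WT to 73.3% ± 0.102 and 76.7% ± 0.966. Myh10 rose by 0.52 (SE 0.04, adjusted p = 1.0e-07) in the libraries labelled Atm-/-. In Sirt6-/- the Myh10 value of -0.12 (SE 0.05, adjusted p = 0.029) was lost with library totals (adjusted p = 0.574).

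Myl9 encodes the regulatory light chain of smooth muscle myosin and lies on chromosome 2 (156775420 to 156781658), just downstream of the sequence with the exact box shown above. It showed the widest range of any member. WT samples had 24, 34 and 43 reads, the libraries labelled Atm-/- 735, 702 and 854, and Sirt6-/- 1694, 1434 and 1898. The 3 genotypes were fully apart, with WT lowest and Sirt6-/- highest. Myl9 rose 20.6-fold (log2 fold change 4.36, SE 0.18, adjusted p = 2.7e-11) in the libraries labelled Atm-/- and 47.7-fold (5.58, SE 0.16, adjusted p = 1.8e-13) in Sirt6-/-. The former had 0.436 times the level of the latter (-1.20, SE 0.09, adjusted p = 1.8e-10).

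By mean RPKM Myl9 was number 10666 of 24341 genes in WT, 3971 in the libraries labelled Atm-/- and 1721 in Sirt6-/-. The light chains Myl12a and Myl12b of nonmuscle cells moved the other way. Myl12a fell by 0.57 (SE 0.05, adjusted p = 8.6e-08) in the libraries labelled Atm-/- and by 0.85 (SE 0.05, adjusted p = 6.8e-10) in Sirt6-/-. Myl12b fell by 0.71 (SE 0.05, adjusted p = 1.2e-08) and by 1.18 (SE 0.06, adjusted p = 3.0e-10). Even so, Myl12a remained the main regulatory light chain RNA, at 80.0% ± 0.515 of the RPKM of the 3 genes in WT, 78.9% ± 0.474 in the libraries labelled Atm-/- and 76.0% ± 1.61 in Sirt6-/-. Myl9 went from 0.113% ± 0.0377 to 3.37% ± 0.339 and 9.10% ± 0.945.

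Tpm1 and Tpm2 encode tropomyosins, the coiled coils that run along the actin filament, and they moved in opposite directions. Tpm1 lies on chromosome 9 (67022590 to 67049406) and had 116720, 120771 and 109843 reads in WT, 47582, 45661 and 46339 in the libraries labelled Atm-/- and 40162, 36736 and 41877 in Sirt6-/-. Every WT sample lay far above all 6 other samples, which also fell into separate ranges by genotype. Tpm1 fell to 0.365 times WT (-1.45, SE 0.04, adjusted p = 9.8e-13) in the libraries labelled Atm-/- and to 0.329 times (-1.60, SE 0.05, adjusted p = 8.0e-13) in Sirt6-/-. The libraries labelled Atm-/- and Sirt6-/- differed by 0.17 (SE 0.04, adjusted p = 0.00061), with Tpm1 higher in the former.

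Tpm2 lies on chromosome 4 (43514711 to 43523765) and had 3965, 4175 and 3597 reads in WT, 6649, 7027 and 6857 in the libraries labelled Atm-/- and 8211, 8389 and 9102 in Sirt6-/-. The 3 genotypes did not overlap. Tpm2 rose 1.59-fold (0.67, SE 0.06, adjusted p = 8.0e-08) and 2.11-fold (1.08, SE 0.06, adjusted p = 3.1e-10) against WT. The libraries labelled Atm-/- differed from Sirt6-/- by -0.39 (SE 0.04, adjusted p = 3.4e-08).

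Over the 4 tropomyosin genes, summed RPKM was 2918 ± 125 in WT, 1938 ± 33.97 in the libraries labelled Atm-/- and 1729 ± 31.3 in Sirt6-/- (SD, n = 3). The share of Tpm1 was 69.6% ± 0.435 in WT, 42.9% ± 0.533 in the libraries labelled Atm-/- and 41.1% ± 1.42 in Sirt6-/-. Tpm4, of nonmuscle filaments, went from 16.9% ± 0.235 to 36.5% ± 0.226 and 37.8% ± 1.02, and Tpm2 from 1.90% ± 0.0632 to 5.10% ± 0.184 and 7.19% ± 0.226. Tpm4 itself rose by 0.36 (SE 0.04, adjusted p = 1.3e-06) and by 0.32 (SE 0.04, adjusted p = 5.2e-06). The files list 10 RefSeq transcripts for Tpm1 and 3 for Tpm2, so muscle and nonmuscle isoforms of each gene are summed and cannot be told apart.

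**Figure D3:**
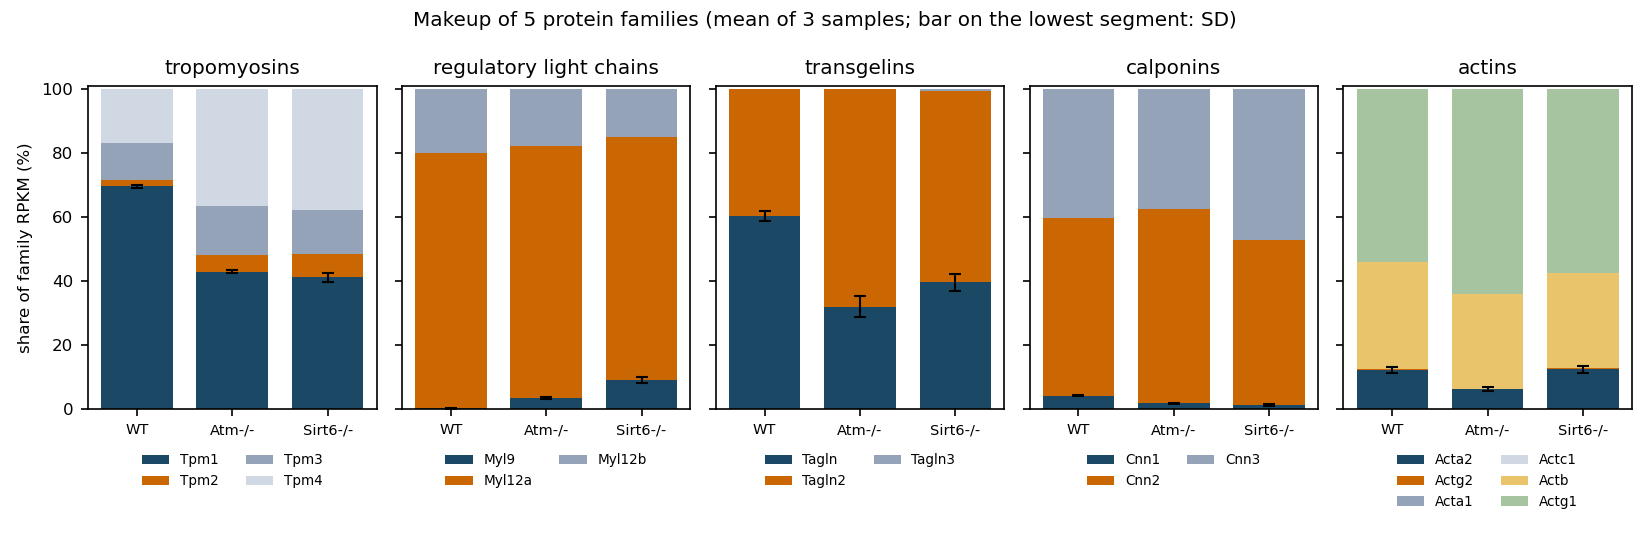
Share of each gene in the summed RPKM of 5 protein families (vertical axis, percent; stacked bars are means of 3 samples per genotype as labelled, error bars the SD of the lowest segment). Tpm1 went from 69.6% of tropomyosin RPKM in WT to 42.9% and 41.1% in Atm-/- and Sirt6-/-, and Tagln from 60.4% of transgelin RPKM to 31.97% and 39.5%.

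Cald1 encodes caldesmon, an actin-binding brake on myosin, and lies on chromosome 6 (34598500 to 34775473). In both comparisons with WT it changed least of the called members. It had 40648, 38306 and 38938 reads in WT, 29022, 26169 and 27953 in the libraries labelled Atm-/- and 35573, 32037 and 34922 in Sirt6-/-. Even so, the genotypes did not overlap. Cald1 fell by 0.64 (SE 0.05, adjusted p = 1.9e-08) and by 0.25 (SE 0.05, adjusted p = 0.00014) against WT, and the libraries labelled Atm-/- differed from Sirt6-/- by -0.37 (SE 0.04, adjusted p = 1.5e-07).

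Cnn1 encodes calponin 1, which binds actin in smooth muscle, and lies on chromosome 9 (22099216 to 22109630). It had 1204, 1131 and 1075 reads in WT, 563, 526 and 606 in the libraries labelled Atm-/- and 278, 244 and 442 in Sirt6-/-. The groups were apart, with WT highest and Sirt6-/- lowest. Cnn1 fell by 1.14 (SE 0.09, adjusted p = 2.5e-08) and by 1.88 (SE 0.15, adjusted p = 3.3e-08), and the libraries labelled Atm-/- were higher than Sirt6-/- by 0.75 (SE 0.15, adjusted p = 0.00014). Its share of calponin RPKM was small throughout, at 4.12% ± 0.246 in WT, 1.69% ± 0.0990 in the libraries labelled Atm-/- and 1.06% ± 0.309 in Sirt6-/-, with Cnn2 and Cnn3 holding the rest.

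Tagln encodes transgelin (SM22 alpha), an early smooth muscle marker, and lies on chromosome 9 (45929619 to 45936058). It had 34775, 35761 and 33138 reads in WT, 10743, 8670 and 11437 in the libraries labelled Atm-/- and 8783, 7801 and 9480 in Sirt6-/-. The libraries labelled Atm-/- and Sirt6-/- lay far below WT and overlapped each other. Tagln fell to 0.271 times WT (-1.88, SE 0.08, adjusted p = 7.0e-11) in the libraries labelled Atm-/- and to 0.242 times (-2.05, SE 0.06, adjusted p = 2.7e-13) in Sirt6-/-. The difference of 0.18 (SE 0.08, adjusted p = 0.041) between the libraries labelled Atm-/- and Sirt6-/- was lost in a fit of all 9 samples (adjusted p = 0.0690), with DESeq2 (0.270), and without any one of Atm-/- replicates 1 or 3 or Sirt6-/- replicates 1 or 2 (up to 0.331).

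The share of Tagln in transgelin RPKM was 60.4% ± 1.49 in WT, 31.97% ± 3.34 in the libraries labelled Atm-/- and 39.5% ± 2.68 in Sirt6-/-. Tagln2, the widely expressed transgelin, made up nearly all of the rest. Tagln2 fell by 0.84 (SE 0.05, adjusted p = 9.4e-10) in Sirt6-/-. Its call of -0.19 in the libraries labelled Atm-/- (SE 0.04, adjusted p = 0.00064) was lost with library totals (adjusted p = 0.505).

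Des encodes desmin, the muscle intermediate filament protein, and lies on chromosome 1 (75360329 to 75368579). It had 19, 38 and 48 reads in WT, 17, 24 and 32 in the libraries labelled Atm-/- and 10, 12 and 3 in Sirt6-/-. Sirt6-/- samples lay below all others, while WT and the libraries labelled Atm-/- overlapped. Des fell by 2.11 (SE 0.53, adjusted p = 0.0021) in Sirt6-/-, and the difference of the libraries labelled Atm-/- from WT was -0.66 (SE 0.41, adjusted p = 0.17). The difference of 1.46 (SE 0.52, adjusted p = 0.015) between the libraries labelled Atm-/- and Sirt6-/- was lost without Sirt6-/- replicate 3 (adjusted p = 0.0913) or Atm-/- replicate 3 (adjusted p = 0.0783). Vimentin (Vim) held 99.95% ± 0.00904 of the RPKM of Des, Vim, Nes and Synm in WT. Vim fell by 0.55 (SE 0.05, adjusted p = 1.1e-07) and by 0.56 (SE 0.05, adjusted p = 1.0e-07), while Nes, nestin of progenitor cells, rose 46.3-fold (5.53, SE 0.09, adjusted p = 1.6e-15) and 53.8-fold (5.75, SE 0.08, adjusted p = 1.8e-16).

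Over the 9 samples, on log2 CPM, Tagln and Tpm1 followed each other closely (Pearson r = 0.995, n = 9), as did Acta2 and Cald1 (r = 0.972), while Myl9 ran opposite to Tpm1 (r = -0.985) and with Tpm2 (r = 0.970). The 9 samples form 3 groups that share genotype label, cell source and library preparation, so these values describe differences between 3 groups. Among 9373 genes searched, those closest to Acta2 were Dnajb14 (r = 0.980), Papss2 (0.980), Clk3 (0.979), Smpdl3b (0.978) and Raver1 (0.976). Those closest to Myl9, the member with the widest spread (6.13 on the log2 scale), were Cdc42bpg (0.998), Cntln (0.998), Sox11 (0.998), Npr2 (0.997) and Ngrn (0.997).

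The other contractile genes of smooth muscle formed a list of 20 genes. Of the 17 tested in the libraries labelled Atm-/-, 5 rose, 8 fell and 4 did not pass, with a median log2 fold change of -0.44. Of the 18 tested in Sirt6-/-, 9 rose, 6 fell and 3 did not pass, with a median of 0.33. Each list's counts stand beside the shares of all genes given above. Mylk, the kinase that phosphorylates the regulatory light chain, fell by 4.76 (SE 0.13, adjusted p = 2.7e-13) in the libraries labelled Atm-/- and by 1.17 (SE 0.10, adjusted p = 1.0e-07) in Sirt6-/-. It was at 10.0 to 13.8 RPKM in WT, 0.464 to 0.576 and 5.16 to 6.42. The kinase was thus lowest in the libraries labelled Atm-/-, in which the regulatory light chain Myl9 was far above WT. Myl9 held only 3.37% of the RPKM of the 3 regulatory light chains there. The other light chains, Myl12a and Myl12b, fell there by 0.57 and 0.71, and Myl9 was higher still in Sirt6-/-.

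The actin-binding smoothelin genes also fell in both. Smtn changed by -1.42 (SE 0.07) and -1.00 (SE 0.07), and Smtnl2 by -3.52 (SE 0.21) and -4.86 (SE 0.25), in the libraries labelled Atm-/- and in Sirt6-/-. Csrp2, a LIM protein of smooth muscle, rose 9.40-fold (3.23, SE 0.16) and 36.6-fold (5.19, SE 0.11), and Hspb6, a small heat shock protein of muscle, by 1.13 (SE 0.09) and by 1.90 (SE 0.09). Each of these was called in both comparisons. Fhl1 rose by 0.37 (SE 0.07) and by 0.31 (SE 0.06), and Filip1l fell by 0.44 (SE 0.05) and by 1.13 (SE 0.05).

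Of the 21 isoform genes, which hold the nonmuscle and other muscle relatives of the members, 7 rose, 8 fell and 4 did not pass of 19 tested in the libraries labelled Atm-/- (median 0.03). In Sirt6-/-, 7 rose, 10 fell and 3 did not pass of 20 (median -0.11). Acta1, skeletal alpha actin, fell by 3.997 (SE 0.19, adjusted p = 1.3e-10) in the libraries labelled Atm-/-, from 7.10 to 8.39 RPKM in WT to 0.401 to 0.650. In Sirt6-/- it fell by 3.26 (SE 0.17, adjusted p = 1.6e-10).

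Stress fibre and focal adhesion genes were the 20 genes of the structures that anchor actin bundles to the cell surface, and all were tested. In the libraries labelled Atm-/- 7 rose, 11 fell and 2 did not pass (median -0.22), and in Sirt6-/- 5 rose, 12 fell and 3 did not pass (median -0.32). Pdlim1, which binds alpha-actinin, rose 5.90-fold (2.56, SE 0.10) and 7.17-fold (2.84, SE 0.09). Fhl2 rose by 0.69 (SE 0.07) and by 0.46 (SE 0.08), and Parvb, of the integrin-linked kinase complex, by 3.38 (SE 0.16) and by 5.77 (SE 0.11). Actn4 rose by 0.27 (SE 0.04) in the libraries labelled Atm-/- and fell by 0.34 (SE 0.04) in Sirt6-/-. The tensin Tns1 fell by 1.12 (SE 0.06) and by 2.69 (SE 0.06), and Palld, palladin, by 0.83 (SE 0.05) and by 1.10 (SE 0.05). Zyx, zyxin, fell by 0.88 (SE 0.05) and by 0.98 (SE 0.05), and Flnc, filamin C, fell by 0.39 (SE 0.04) and by 1.19 (SE 0.04).

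Of the 25 regulators, among them SRF and its cofactors and TGF-beta ligands, receptors and SMADs, 9 rose, 14 fell and 1 did not pass of 24 tested in the libraries labelled Atm-/- (median -0.28). In Sirt6-/-, 6 rose, 15 fell and 3 did not pass (median -0.51). Srf fell by 0.33 (SE 0.05, adjusted p = 4.5e-05) in the libraries labelled Atm-/- and by 0.96 (SE 0.05, adjusted p = 2.4e-10) in Sirt6-/-. Mkl1, its coactivator MRTF-A, rose by 0.37 (SE 0.05, adjusted p = 1.9e-05) and by 0.97 (SE 0.05, adjusted p = 1.9e-10), and Mkl2, MRTF-B, fell by 0.66 (SE 0.06, adjusted p = 8.5e-08) and by 0.58 (SE 0.06, adjusted p = 2.9e-07). Myocd, myocardin, was at or near 0 reads in every sample and was not tested.

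Tead1, a partner of YAP and TAZ, fell by 2.40 (SE 0.05) and by 2.71 (SE 0.05), and Gata6 by 2.19 (SE 0.07) and by 3.38 (SE 0.07). Tgfb2, a ligand that induces the myofibroblast state, fell by 2.19 (SE 0.09) and fell by 1.79 (SE 0.09). Elk1, which binds SRF in competition with its coactivators, rose by 0.88 (SE 0.08) and by 1.23 (SE 0.07). Elk3 rose by 0.90 (SE 0.07) and by 1.02 (SE 0.07), and Tgfb1 by 0.87 (SE 0.07) and by 0.65 (SE 0.08). In Sirt6-/- Klf4, known as a repressor of the smooth muscle programme, rose by 1.72 (SE 0.08) and the receptor Tgfbr2 by 1.12 (SE 0.06). The values of Klf4 and Tgfbr2 in the libraries labelled Atm-/- were -0.51 (SE 0.10) and -0.51 (SE 0.06). Every change given for a named gene of these 4 lists was called in its comparison.

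**Figure D4:**
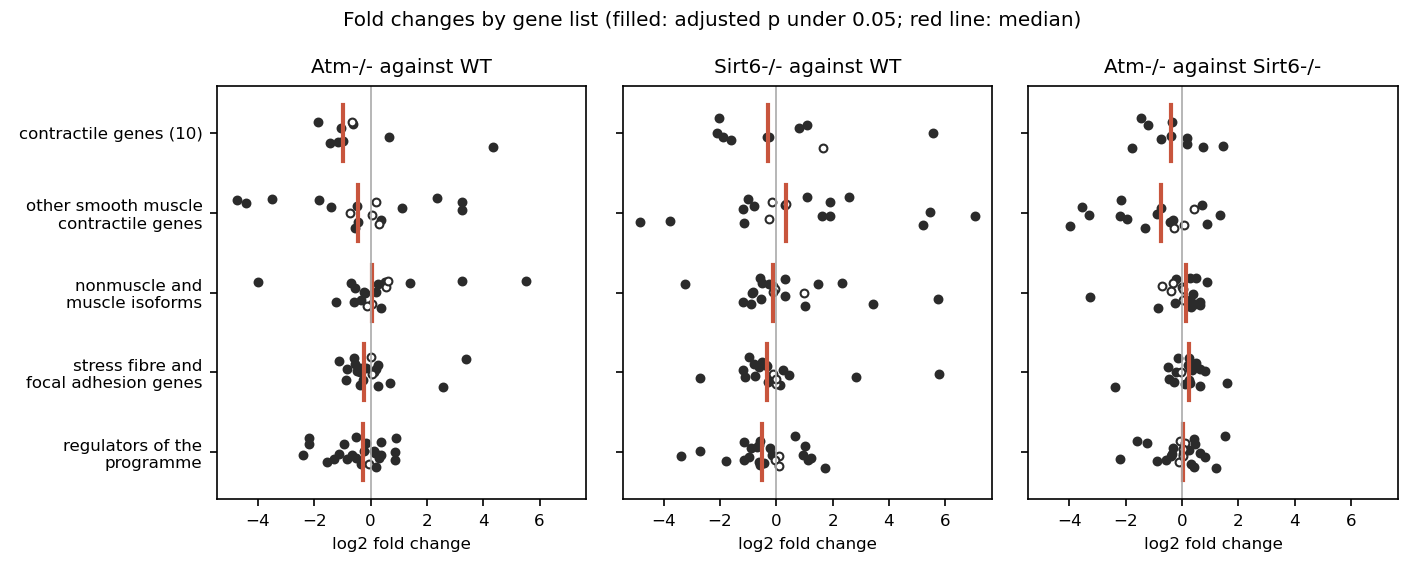
Log2 fold change of each tested gene (points, spread vertically at random for legibility) in the 10 contractile genes and 4 lists of related genes, in the 3 comparisons; filled points have an adjusted p under 0.05 and red lines are medians. Regulators had medians of -0.28 and -0.51 against WT and the other contractile genes -0.44 and 0.33, each with genes on both sides of 0.

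In the direct comparison the other contractile genes had 3 higher and 11 lower in the libraries labelled Atm-/- than in Sirt6-/-, of 17 tested (median -0.76). The stress fibre genes had 13 higher and 6 lower of 20 (median 0.26), the isoform genes 10 higher and 4 lower of 20 (median 0.16), and the regulators 9 higher and 8 lower of 24 (median 0.04). The medians of the contractile and the stress fibre lists thus had opposite signs, a difference between lists that was not tested.

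The tissue label was checked against cell type markers. Of 16 fibroblast markers, Vim, Col1a1, Col1a2, Fn1 and S100a4 carried most of the summed RPKM, while Fap had no reads in WT, Lum none in the libraries labelled Atm-/-, and Thy1 was near 0 in Sirt6-/-. The sum was 7326 to 7820 in WT, 3625 to 3635 in the libraries labelled Atm-/- and 8002 to 8100 in Sirt6-/-. In the libraries labelled Atm-/-, 4 of 15 tested were higher and 11 lower than in WT, and in Sirt6-/- 7 and 7 of 14. In the libraries labelled Atm-/-, most contractile genes and most fibroblast markers were thus lower, but not all. The markers Thy1 (52.8 RPKM beside 13.3 in WT), Twist1, Twist2 and Fap were higher there, as were the members Myl9 and Tpm2. Fap, without reads in WT, passed the filter on low counts only through the libraries labelled Atm-/-. In Sirt6-/-, 6 members fell in the fits, which use TMM. The fibroblast sum lay above WT there only in RPKM, which is scaled by library total. TMM factors were lower in every WT sample than in Sirt6-/-, which narrows this gap, and no sum was made on the TMM scale. The fall of these members is therefore not set against the fibroblast sum. A link between the lists was not tested. Among 10 pericyte markers, 4 of 4 tested were higher in Sirt6-/-, with a summed RPKM of 68.9 to 69.7 beside 16.9 to 17.5 in WT and 17.4 to 17.6 in the libraries labelled Atm-/-. Cspg4 and Pdgfrb carried this sum, and Rgs5, Abcc9, Kcnj8 and Vtn, which define pericytes, were at or near 0 in every sample.

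Of 9 epithelial markers, 8 were tested and 3 were higher and none lower in the libraries labelled Atm-/-, beside 34.7% and 33.6% of all genes. Their summed RPKM was 63.9 to 69.5 there, 14.1 to 16.5 in WT and 13.1 to 15.3 in Sirt6-/-. Krt19 (35.1 RPKM beside 1.47 in WT) and Krt18 (21.1 beside 4.85) carried this sum in the libraries labelled Atm-/-. Epcam was at 0.610 beside 0.522. Skeletal muscle markers summed to 9.38 to 10.6 RPKM in WT, where Acta1 carried most, and to 1.64 to 1.73 and 1.61 to 1.94 in the libraries labelled Atm-/- and Sirt6-/-. Myod1, Myf5, Myog, Pax7 and Ckm, which define that lineage, were at or near 0 in every sample. Cardiac markers summed to 22.7 to 32.2 RPKM in WT, 6.77 to 8.69 and 4.78 to 5.02, carried in WT by the troponins Tnnt2 and Tnni1, with Myh6 at 0 reads in every sample. Tbx5 went the other way, with 0 reads in WT, 345 to 365 in the libraries labelled Atm-/- and at most 1 in Sirt6-/-. Of the cardiac markers tested against WT, 1 was higher and 2 lower of 5 in the libraries labelled Atm-/-. Tbx5 passed the filter on low counts there only through the libraries labelled Atm-/-, and Tnni1 only through WT. In Sirt6-/- only Tnnt2, Tnni1 and Myl7 were tested, and these 3 were lower, beside 37.4% of all genes. Tnni1 (2 to 6 reads) and Myl7 (0 reads) passed the filter only through WT, with 210 to 305 and 32 to 54 reads. A fall was thus the only direction open to these last 2. Endothelial and blood cell markers summed to at most 5.58 and 8.68 RPKM. The part of these markers in the contractile gene results was not tested.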

How the data were processed

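The labels describe poly(A) RNA-Seq of 9 MEF samples. The authors deposited, for each sample, whole-number read counts of 24341 genes with a listed length, and RPKM made from them. The counter and its handling of strand and of reads that fit several genes are not given in the sources used here. The submitters' processing notes name mm10. The deposited counts sum to 32187040 to 33837949 per sample, and all rows name a gene. Samples were grouped by the genotype label.

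Each pair of genotypes (3 against 3 samples) was fitted with edgeR 4.0.16 in R 4.3.3: genes passing filterByExpr were scaled by TMM and tested with glmQLFit and glmQLFTest (prior count 0.125). P-values were adjusted over all genes tested by the Benjamini-Hochberg method, with a threshold of 0.05. SE was taken from the F statistic. The deposited RPKM served for levels between genes, shares of families and sums of lists, and no test used it. It is scaled by library total, so RPKM values of different genotypes are not on the TMM scale of the fold changes. The code was run on simulated counts with few genes changed and the same spread setting for every gene. In the data most genes were called, so this run does not vouch for the calls. Alternatives were DESeq2 size factors, library totals, at least 10 counts in every sample, no filter, all 9 samples in one fit, a replicate block, the Wald test of DESeq2 1.42.0, each replicate left out, and a 2-fold minimum.

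The members and gene lists were chosen with earlier results of these data known. The text names all members, Srf, Myocd, Mkl1, Mkl2, Actb, Actg1, Mylk, Myh9, Myh10, Atm, Sirt6 and Trp53. It adds up to 3 genes in each direction, by size of fold change, from each of 4 related lists against WT, if called, with an average log2 CPM of 3 or more and with samples that did not overlap. For Acta2 and the member of widest spread it adds the 5 genes with the highest Pearson r. Acta1, Cnn2, Cnn3, cell type markers and, for a gene named in 1 comparison with WT, its value in the other fall outside this rule and were added after their values were seen. One gene that this rule names is not reported here. Gene positions are from GENCODE M21 and promoter windows from RefSeq, both on GRCm38.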

Additional observations from a re-analysis of the deposited data

How the results depend on the processing

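No member changed direction under any alternative. With at least a 2-fold change, 1 member, Myl9, was higher in the libraries labelled Atm-/- than in WT. Tagln, Tpm1, Cnn1 and Acta2 were lower there, by 1.06 to 1.88 on the log2 scale. In all, 1675 genes were higher and 1308 lower. In Sirt6-/- against WT, Myl9 and Tpm2 passed as higher and Des, Tagln, Cnn1 and Tpm1 as lower. There, 2315 genes were higher and 1557 lower. Against Sirt6-/-, the libraries labelled Atm-/- had 1 member higher and 3 lower, with 1523 genes higher and 1910 lower. Leaving out each replicate gave 2 to 4 members higher in that last comparison, the lowest without Atm-/- replicate 3. The other changed calls of members concern Tagln, Myh11 and Des and stand with those genes. Of the related lists, with at least a 2-fold change against WT, the libraries labelled Atm-/- had 0 regulators higher and 6 lower, 2 stress fibre genes higher and 1 lower, 3 isoform genes higher and 2 lower, and 5 other contractile genes lower. Sirt6-/- had 5 regulators lower, 2 stress fibre genes higher and 3 lower, and 2 isoform genes lower. Only list counts that moved clearly from the main fit are given here, so a direction left out still held genes. In Sirt6-/- these included the regulators Klf4 (log2 fold change 1.72), Elk1 (1.23) and Tgfbr2 (1.12) and the isoform genes Nes (5.75) and Myh9 (1.03), all higher. With at least 10 counts in every sample, 3 other contractile genes were higher in the libraries labelled Atm-/-. These list counts were added after the data were seen. Without TMM, on library totals, the median log2 fold change of all genes became 0.18 in the libraries labelled Atm-/- and 0.11 in Sirt6-/- against WT, and 6156 genes were higher and 3326 lower in the former, in place of 4611 and 4469. The members were still 2 higher and 6 lower there. Of the related genes named, Actb and Tagln2 in the libraries labelled Atm-/- and Myh10 in Sirt6-/- lost their call on this scale and none reversed. With at least 10 counts in every sample, Myh11 was not tested.

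Same-numbered samples did not deviate together, with r from -0.02 to 0.03. With the replicate number as a block (a replicate block in the fit), 4482 genes were higher and 4351 lower in the libraries labelled Atm-/- than in WT, 5146 and 4895 in Sirt6-/-, and 5092 and 5065 between the libraries labelled Atm-/- and Sirt6-/-, where Myh11 lost its call (adjusted p = 0.0689). The labels do not pair the samples. Depth limits Myh11 and Des, which rest on at most 13 and 48 reads per sample.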
